A study of Homo sapiens with 38 samples.

Results

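The metallothionein genes MT1E, MT1F, MT1G, MT1M, MT1X and MT2A were followed in RNA from the nucleus and the cytoplasm of HCT116 cells, a human colon cancer line, and of 4 derived lines lacking Argonaute proteins, which carry small guide RNAs to their targets. The genes were chosen by name, as 6 of the 58425 genes for which the deposited tables held a transcript. The 5 genotypes were the wild type, single knockouts of AGO1 and of AGO2, a double knockout of both genes (AGO1/2) and a triple knockout that also lacks AGO3 (AGO1/2/3), each with 3 nuclear and 3 cytoplasmic libraries, 30 in all, and no group received a treatment. Libraries were named by culture passage, which was 27 to 29 for the wild type and 6 to 14 for the knockouts, so that genotype and passage cannot be told apart. The labels describe 1 line per genotype and do not tell the 3 passages apart as separate clones, so that p-values measured the spread between passages of a line.

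Metallothioneins are small, cysteine-rich proteins that bind zinc, copper and cadmium. Their genes lie in a cluster, and their transcription is raised by metals through the zinc-sensing factor MTF1, which binds metal response elements in their promoters, and also by glucocorticoids and by other stresses. The encoded proteins buffer free zinc and take up toxic metals, and in the gut the genes are expressed in the epithelium.

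The 6 genes occupy a stretch of chromosome 16 (GRCh38), with MT2A at chr16:56608584-56609497, MT1E at chr16:56625475-56627112, MT1M at chr16:56632659-56633981, MT1F at chr16:56657731-56660698, MT1G at chr16:56666730-56668065 and MT1X at chr16:56682470-56684196. MT1G is on the minus strand and the others are on the plus strand. In the main coding transcript of each gene the reading frame is spread over 3 exons. It is 186 bases long in 5 of the genes and 189 in MT1G, and in each it holds 20 cysteine codons. The coding sequences of the 4 genes that were expressed are shown because their similarity bears on how reads could be shared among them. They are taken from GENCODE release 44, 5′ to 3′, with the cysteine codons TGC and TGT in capitals.
MT2A: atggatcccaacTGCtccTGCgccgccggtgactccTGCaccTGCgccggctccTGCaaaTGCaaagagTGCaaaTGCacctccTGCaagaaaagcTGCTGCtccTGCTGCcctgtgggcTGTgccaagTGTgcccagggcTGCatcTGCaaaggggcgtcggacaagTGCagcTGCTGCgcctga
MT1E: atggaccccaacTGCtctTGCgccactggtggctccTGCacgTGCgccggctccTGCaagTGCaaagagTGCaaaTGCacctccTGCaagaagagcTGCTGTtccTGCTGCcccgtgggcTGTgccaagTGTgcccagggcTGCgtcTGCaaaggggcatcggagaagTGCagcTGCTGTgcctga
MT1X: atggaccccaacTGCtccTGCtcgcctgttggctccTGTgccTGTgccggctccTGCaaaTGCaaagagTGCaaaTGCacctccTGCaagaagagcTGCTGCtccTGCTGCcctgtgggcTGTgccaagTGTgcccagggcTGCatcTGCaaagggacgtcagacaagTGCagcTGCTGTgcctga
MT1F: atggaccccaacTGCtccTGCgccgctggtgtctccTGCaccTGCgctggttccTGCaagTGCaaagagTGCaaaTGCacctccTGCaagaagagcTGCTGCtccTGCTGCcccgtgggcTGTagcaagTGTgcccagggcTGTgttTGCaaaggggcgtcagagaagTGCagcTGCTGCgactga

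Pairs of members of equal coding length were identical at 88.71% (MT1X and MT1F) to 92.47% of the coding bases (MT2A and MT1E, MT2A and MT1X, MT1E and MT1M). Over the whole main transcripts, no stretch of 75 bases was shared between any pair except MT1X and MT1G, which shared 22 such windows. Shorter identical stretches of 31 bases were found in every pair, from 2 windows (MT2A with MT1E, MT1F or MT1M) to 66 (MT1X with MT1G). Reads that fall wholly in such stretches cannot be assigned to 1 gene from sequence alone, and the deposited values are the estimates that the authors' quantification made.

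RefSeq promoter sequences (GRCh38.p14) were matched for 2 of the 6 members, MT2A and MT1X. The 250 bases before the start site are shown because the metal response element is the feature for which these promoters are known. Matches to its core, TGCACNC or TGCGCNC on either strand, are in capitals (on the minus strand a match reads GNGTGCA or GNGCGCA), and no match overlapped another.
MT2A chr16:56608334-56608583, plus strand: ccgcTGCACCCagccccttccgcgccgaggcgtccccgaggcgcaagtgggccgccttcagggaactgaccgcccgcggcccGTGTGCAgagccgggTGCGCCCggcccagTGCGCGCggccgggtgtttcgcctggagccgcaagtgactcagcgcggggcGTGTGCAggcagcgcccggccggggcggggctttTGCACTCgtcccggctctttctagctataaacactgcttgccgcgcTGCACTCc
MT1X chr16:56682220-56682469, plus strand: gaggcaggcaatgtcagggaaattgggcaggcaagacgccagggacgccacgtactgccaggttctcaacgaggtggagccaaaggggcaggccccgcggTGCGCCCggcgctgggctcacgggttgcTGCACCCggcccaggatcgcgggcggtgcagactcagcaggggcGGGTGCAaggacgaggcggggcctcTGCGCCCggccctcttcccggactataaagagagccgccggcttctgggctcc

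The MT2A promoter held 7 matches and the MT1X promoter 4. Of 35116 promoters of the same length, 24.83% held at least 1 match, 0.3702% at least 4 and 0.03132% at least 7, and the median was 0. Both promoters also held the letters TATAAA. These are matches to letters, and binding of MTF1 was not measured.

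Nuclear libraries held 20431557 to 54097984 estimated reads and cytoplasmic libraries 39476205 to 79731793. The wild-type libraries were the shallowest in each fraction, at most 26536692 reads in nuclear RNA and 43281746 in cytoplasmic RNA against at least 31252459 and 66451720 in the knockouts. AGO1 RNA was at 12.9 TPM (a level scaled to transcript length and to the library's total) in wild-type cytoplasm and at 0.887 to 0.920 TPM in the 3 groups that lack AGO1. Cytoplasmic AGO2 RNA was at 18.6 TPM in the AGO2 knockout and 36.0 TPM in wild type, but at 28.9 and 27.2 TPM in the double and triple knockouts, and AGO3 RNA in the triple knockout (8.64 TPM) lay inside the wild-type range, so that AGO3 RNA gave no check of that label. MALAT1, a nuclear noncoding RNA, was 25.5-fold higher on the TPM scale in nuclear than in cytoplasmic RNA of the wild type and 12.3- to 13.0-fold higher in the knockouts. All 5 epithelial markers examined were present at a mean of at least 1 TPM in every group, while of 10 markers of blood, vessel, stroma, liver and glia 9 stayed below 1 TPM in every group, the exception being COL1A1 at up to 6.21 TPM. The epithelial markers EPCAM and CDH1 differed between the lines: in cytoplasmic RNA EPCAM was at 142 TPM in wild type, 44.1 TPM in the double and 52.0 TPM in the triple knockout, and CDH1 at 12.4, 1.12 and 1.90 TPM.

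Of the 6 members, 4 were expressed. MT2A and MT1E made up most of the family, MT1X followed and MT1F was low. MT1M had 0 reads in all 30 libraries, and a count of 0 allows up to 3 reads per library. MT1G had 8 reads in total, in 6 libraries and at most 2 in any of them. Neither entered a test, and no fold change is given for them. The other metallothionein genes and pseudogenes listed, 15 in all of which 14 had transcripts in the tables, held at most 14 reads together in any library and at most 0.0387% of all metallothionein reads.

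In wild-type cells the summed level of the 6 genes was 294 ± 52.2 TPM (SD, n = 3) in nuclear RNA and 760 ± 84.0 TPM in cytoplasmic RNA. MT1E contributed 49.7% and 48.3% of these sums, MT2A 41.7% and 43.1%, MT1X 8.10% and 8.08%, and MT1F 0.486% and 0.503%. In TPM the order of MT1E over MT2A rested on little in the wild type. In passage 29 MT2A was the higher of the pair in both fractions. In estimated reads, which are not scaled to transcript length, MT2A was the higher in every wild-type library. The wild type held 5926 MT2A and 4603 MT1E reads in nuclear RNA, and 30318 and 22874 in cytoplasmic RNA. Read totals of MT2A also exceeded those of MT1E in both fractions of each knockout line, barely so in AGO2 knockout cytoplasm (50724 and 50693).

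**Figure D1:**
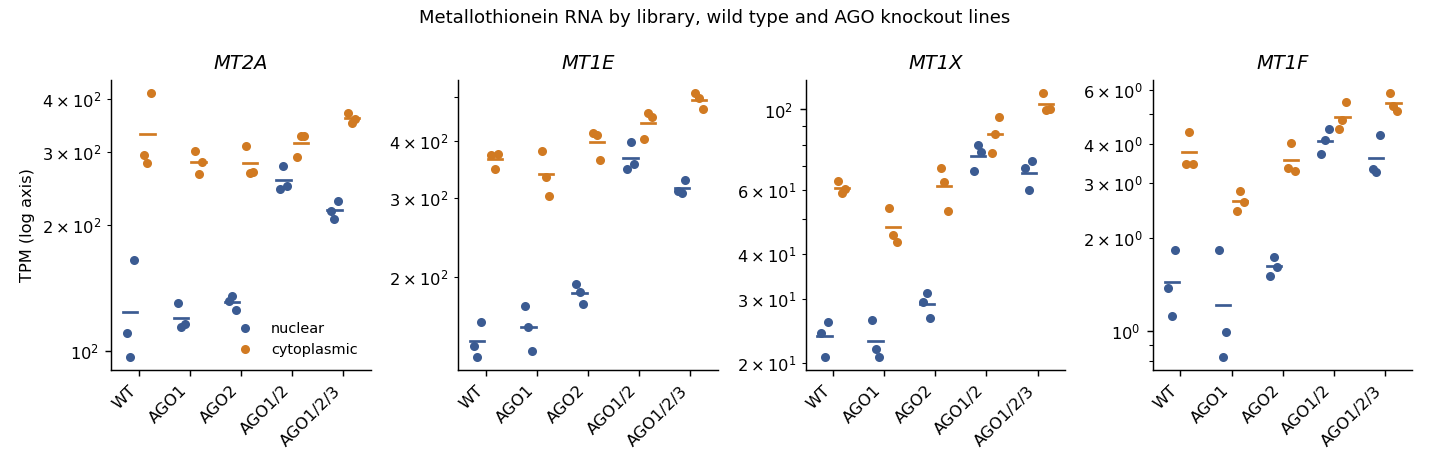
Level of the 4 expressed members in each library, in TPM on a log axis with its own range for each gene, for the 5 genotypes. Points are libraries, short lines are means of 3 libraries, blue is nuclear and orange cytoplasmic RNA. In nuclear RNA all double and triple knockout libraries lie above all other nuclear libraries for each of the 4 genes.

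MT2A, the most widely expressed human metallothionein, stood at 110.8, 96.8 and 165 TPM in the nuclear RNA of wild-type passages 27, 28 and 29. It was at 130, 114 and 116 TPM in the AGO1 knockout and at 132, 136 and 125 TPM in the AGO2 knockout. In the double knockout it was at 244 to 278 TPM and in the triple knockout at 207 to 229 TPM. All 6 libraries of the double and triple knockouts were above every other nuclear library, while the single knockouts fell inside the wild-type range, which passage 29 alone carried above 111 TPM. In the cytoplasm MT2A was at 294, 281 and 414 TPM in the wild type, 265 to 301 TPM in the AGO1 knockout, 267 to 310 TPM in the AGO2 knockout, 291 to 328 TPM in the double and 352 to 372 TPM in the triple knockout. There the wild-type range overlapped that of every knockout on this scale. Passage 29 was again the highest wild-type library, and without it the triple knockout lay above the wild type while the other 3 lines still overlapped it.

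MT1E, a close relative of MT2A in sequence and role, was at 141, 133 and 160 TPM in wild-type nuclear RNA. The AGO1 knockout libraries held 173, 156 and 138 TPM and overlapped the wild type, and the AGO2 knockout libraries held 194, 186 and 174 TPM and did not. The double knockout held 346, 398 and 355 TPM and the triple knockout 311, 307 and 328 TPM. In the cytoplasm the wild type was at 373, 347 and 375 TPM and the triple knockout at 511, 497 and 470 TPM. The double knockout lay between them at 404 to 460.5 TPM, clear of the wild type, and the single knockouts (303 to 381 and 363 to 416 TPM) overlapped the wild type.

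MT1X, whose promoter is shown above, was at 24.1, 20.8 and 26.0 TPM in wild-type nuclei, 20.7 to 26.2 TPM in the AGO1 knockout and 26.6 to 31.2 TPM in the AGO2 knockout. It was at 67.5, 79.6 and 76.3 TPM in the double and 69.0, 59.95 and 72.0 TPM in the triple knockout. These were the largest nuclear ratios of mean TPM over wild type among the 4 genes, 3.15 and 2.83. In cytoplasmic RNA MT1X was at 58.6 to 63.6 TPM in wild type, 43.0 to 53.6 TPM in the AGO1 knockout, 52.4 to 69.0 TPM in the AGO2 knockout, 75.9 to 95.4 TPM in the double and 99.6 to 111 TPM in the triple knockout. The AGO1 knockout thus lay below the wild type without overlap and the double and triple knockouts above it.

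MT1F was scarce, with 16 to 24 reads in each wild-type nuclear library and 89 to 126 in each wild-type cytoplasmic library. Its nuclear level was 1.44 ± 0.359 TPM in wild type, 1.22 ± 0.538 TPM in the AGO1 knockout, 1.62 ± 0.113 TPM in the AGO2 knockout, 4.10 ± 0.365 TPM in the double and 3.62 ± 0.564 TPM in the triple knockout (SD, n = 3). Counting error is a larger part of its spread than for the other 3 genes. With 3 libraries against 3, an exact two-sided permutation test of any such pair of groups cannot give a p below 0.1, so the differences were tested with edgeR's quasi-likelihood test, fitted to all genes of a fraction.

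In that test, counts are scaled by TMM factors, which hold the bulk of genes level between libraries, and a gene counts as called when its p, adjusted by Benjamini-Hochberg over all genes, does not exceed 0.05. In nuclear RNA all 4 tested members rose in the double and in the triple knockout. Of all 18919 genes tested, 32.9% and 29.1% were called higher in these comparisons. In the double knockout the log2 fold changes were 1.02 ± 0.18 (SE) for MT2A, 1.32 ± 0.09 for MT1E, 1.499 ± 0.12 for MT1X and 1.60 ± 0.23 for MT1F, that is 2.02-, 2.49-, 2.83- and 3.03-fold. The edgeR adjusted p-values were 1.16e-04, 7.97e-09, 3.43e-08 and 1.62e-05. In the triple knockout they were 0.996 ± 0.18, 1.29 ± 0.09, 1.62 ± 0.12 and 1.61 ± 0.23 on the log2 scale. The median over the 4 members was 1.41 and 1.45, against a median of -0.06 and -0.03 over all genes tested.

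The nuclear rise took place beside a rise of other short coding genes, a group chosen after the values were seen. Of 783 tested coding genes whose transcripts averaged under 1000 bases, 59.8% were called higher in the double and 51.0% in the triple knockout, with median log2 fold changes of 0.47 and 0.33. The mean transcript lengths of the 4 members, 487 to 755 bases in the tables, put them in that group. The summed level of the 5 epithelial markers, of which the keratins make up most, was also higher in the nuclear RNA of these lines, at 2596 to 2771 TPM in the double and 2011 to 2360 TPM in the triple knockout against 1150 to 1253 TPM in wild type. It was not higher in cytoplasmic RNA. There the double knockout was at 804.9 to 977.6 TPM and the triple knockout at 1063 to 1319 TPM, against 1167 to 1326 TPM in wild type. The part of these shifts in the metallothionein values was not tested.

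The single knockouts differed less from the wild type in nuclear RNA. MT1E rose in the AGO1 knockout by 0.34 ± 0.09 on the log2 scale (edgeR adjusted p = 0.0109), where 14.3% of genes were called higher, and it was the only one of the 4 members called. In the AGO2 knockout, where 20.2% were called higher, MT1E rose by 0.62 ± 0.09 and MT1X by 0.46 ± 0.12 (edgeR adjusted p = 9.54e-05 and 7.02e-03). MT1F had the same log2 value there, 0.62 ± 0.24, but missed the threshold (edgeR adjusted p = 0.0517). It passed without wild-type passage 29 (0.88) or AGO2 knockout passage 8 (0.72). MT2A had log2 values of 0.19 ± 0.18 and 0.31 ± 0.18. Without the nuclear library of wild-type passage 29 these became 0.57 and 0.70, both past the threshold (edgeR adjusted p = 8.15e-05 and 6.25e-06), and the double and triple knockout values of MT2A became 1.42 and 1.39. On the log2(TPM + 1) scale the median of all genes lay at -0.17 in both single knockouts. There MT2A and MT1X were at -0.01 and -0.04 in the AGO1 knockout, above that median, limma called none of the 4 members in that line, and it called MT1E alone in the AGO2 knockout. Of 18919 genes limma called 6139 in either direction in the AGO1 and 6990 in the AGO2 knockout.

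**Figure D2:**
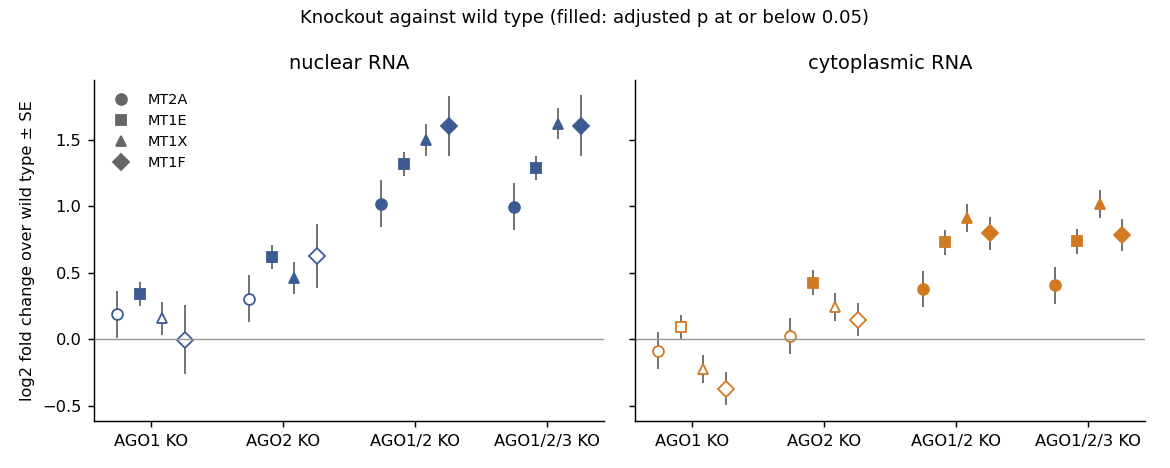
Log2 fold change of each member over wild type in TMM-scaled counts, with its SE, for the 4 knockout lines in nuclear (left, blue) and cytoplasmic (right, orange) RNA. Filled symbols passed an edgeR adjusted p of 0.05. In the double and triple knockouts every symbol is filled, from 0.996 to 1.62 in nuclear and from 0.38 to 1.02 in cytoplasmic RNA.

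In cytoplasmic RNA all 4 members were again called higher in the double and triple knockouts, by less. Of 17605 genes tested, 23.9% and 18.6% were called higher. In the double knockout the log2 fold changes were 0.38 ± 0.14 for MT2A, 0.73 ± 0.09 for MT1E, 0.91 ± 0.11 for MT1X and 0.80 ± 0.12 for MT1F (edgeR adjusted p = 0.0329, 1.85e-05, 7.08e-06 and 7.90e-05). In the triple knockout they were 0.41 ± 0.14, 0.74 ± 0.09, 1.02 ± 0.11 and 0.78 ± 0.12. MT2A was the weakest of these calls. It missed the threshold in the double knockout when wild-type passage 27 or 28, or double knockout passage 10 or 11, was left out (log2 values of 0.29, 0.26, 0.31 and 0.39), and rose to 0.62 without wild-type passage 29. In the triple knockout it missed the threshold without wild-type passage 27 or 28, or triple knockout passage 11 or 14 (0.31, 0.28, 0.39 and 0.40), and was at 0.65 without wild-type passage 29. It also missed it in both lines when only the groups compared were fitted (edgeR adjusted p = 0.122 and 0.111), and in the double knockout with length-scaled counts (0.34, edgeR adjusted p = 0.0601).

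The cytoplasmic values also depended on the scale. In TPM, the median of all genes shifted by -0.20 on the log2(TPM + 1) scale in the double and by -0.13 in the triple knockout, against -0.01 in both lines in TMM-scaled counts. MT2A was then at -0.05 and 0.15, which is 0.16 and 0.28 above those medians, and was not called by limma (adjusted p = 0.770 and 0.329). MT1E, MT1X and MT1F were called higher in both lines on this scale as well, at 0.26, 0.48 and 0.31 in the double knockout and at 0.43, 0.76 and 0.43 in the triple knockout.

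The cytoplasm of the single knockouts gave 1 call. MT1E rose in the AGO2 knockout by 0.42 ± 0.09 on the log2 scale (edgeR adjusted p = 6.92e-03), where 7.07% of genes were called higher, and MT2A joined it without wild-type passage 29 (0.27, edgeR adjusted p = 0.0450). In the AGO1 knockout edgeR called 0 of the 4 members, against 4.28% of all genes called higher, with log2 values of -0.09 ± 0.14 for MT2A, 0.09 ± 0.09 for MT1E, -0.22 ± 0.11 for MT1X and -0.37 ± 0.12 for MT1F. There 1 member had an unadjusted p under 0.05, and DESeq2 also called 0. MT1F was called lower when wild-type passage 27 was left out (-0.46, edgeR adjusted p = 0.0379), and 8.13% of genes were called lower in that line. On the log2(TPM + 1) scale limma called MT1X and MT1F lower in that line, at -0.36 and -0.39 (limma adjusted p = 0.0349 and 0.0159), where the median of all genes was at -0.08. Of 17605 genes limma called 3243 in either direction there.

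The knockouts were also compared with each other, to see what losing AGO2 in place of AGO1, or AGO3 on top of AGO1 and AGO2, went with. In the cytoplasm the AGO2 knockout was higher than the AGO1 knockout in 3 of the 4 members, MT1E by 0.33 ± 0.09, MT1X by 0.46 ± 0.11 and MT1F by 0.52 ± 0.12 on the log2 scale (edgeR adjusted p = 0.0169, 4.75e-03 and 5.37e-03), where 14.5% of genes were called higher. The MT1E call there was lost without AGO1 knockout passage 7 or 8 or AGO2 knockout passage 8 (0.33, 0.25 and 0.29). In nuclear RNA, where 14.8% were called higher, MT1E was called at 0.28 ± 0.09 (edgeR adjusted p = 0.0295), and this call was lost when any of the 6 libraries was left out (log2 values of 0.24 to 0.30). MT2A did not pass in either fraction, at 0.12 ± 0.18 and 0.11 ± 0.14.

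In TMM-scaled counts the triple and the double knockout could not be told apart in any member. In TPM their libraries did not overlap for MT2A and MT1E in either fraction, or for MT1X in cytoplasmic RNA. The triple knockout was the lower there in nuclear and the higher in cytoplasmic RNA. The median of all genes moved in the same directions, by -0.10 in nuclear and 0.07 in cytoplasmic RNA on the log2(TPM + 1) scale. How many of all genes failed to overlap between these lines was not counted, so the lack of overlap is description only. On the log2(TPM + 1) scale limma called none of the 4 members. Its smallest adjusted p was 0.143 (MT1E) in nuclear and 0.139 (MT1X) in cytoplasmic RNA. In nuclear RNA edgeR called 0 of the 4 members, with 1.74% of genes called higher, and log2 values of -0.02 ± 0.17 for MT2A, -0.03 ± 0.09 for MT1E, 0.12 ± 0.11 for MT1X and 0.00 ± 0.19 for MT1F. In cytoplasmic RNA it called 0 of the 4, with 2.47% of genes called higher, and values of 0.03 ± 0.14, 0.01 ± 0.09, 0.11 ± 0.10 and -0.01 ± 0.11. No member had an unadjusted p under 0.05 in either fraction, and DESeq2 called 0 in both. The 95% intervals were narrowest for MT1E, at -0.20 to 0.14 in nuclear and -0.18 to 0.19 in cytoplasmic RNA, and widest for MT1F in nuclear RNA, at -0.37 to 0.38.

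The members did not contribute equally to these changes. The share of MT1X in the summed TPM of the family was 8.10 ± 0.67% in wild-type nuclei, 10.6 ± 0.50% in the double and 11.1 ± 0.62% in the triple knockout (SD, n = 3), and in cytoplasmic RNA 8.08 ± 0.87%, 10.1 ± 0.61% and 10.8 ± 0.34%. The share of MT2A was 41.7 ± 4.497% in wild-type nuclei and 36.0 to 36.6% in the double and triple knockouts. It was 40.2 ± 1.72% in the AGO1 and 37.8 ± 0.71% in the AGO2 knockout, so that the AGO2 knockout was nearer to the double and triple knockouts than the AGO1 knockout was. Wild-type passage 29, at 46.8%, raised the wild-type mean. Passages 27 and 28 were at 39.9 and 38.4%, below the AGO1 knockout mean. The share of MT1E varied little between knockouts, from 51.8 to 53.3% in nuclear RNA.

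All 4 members were lower in nuclear than in cytoplasmic RNA in every genotype, the usual distribution of a messenger RNA. In wild type the log2 ratio of nuclear to cytoplasmic TMM-scaled counts was -1.98 ± 0.17 for MT2A, -1.95 ± 0.09 for MT1E, -1.69 ± 0.12 for MT1X and -2.04 ± 0.19 for MT1F. In the AGO1 knockout the 4 values ran from -1.68 to -1.29, in the AGO2 knockout from -1.75 to -1.47, in the double knockout from -1.43 to -1.18 and in the triple knockout from -1.47 to -1.17. Each was called by edgeR, with the largest adjusted p at 2.36e-08. Of 20104 genes tested, 37.3% were called lower in the nucleus in wild type, 34.5% in the AGO1 knockout, 33.6% in the AGO2 knockout, 31.6% in the double and 34.1% in the triple knockout.

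**Figure D3:**
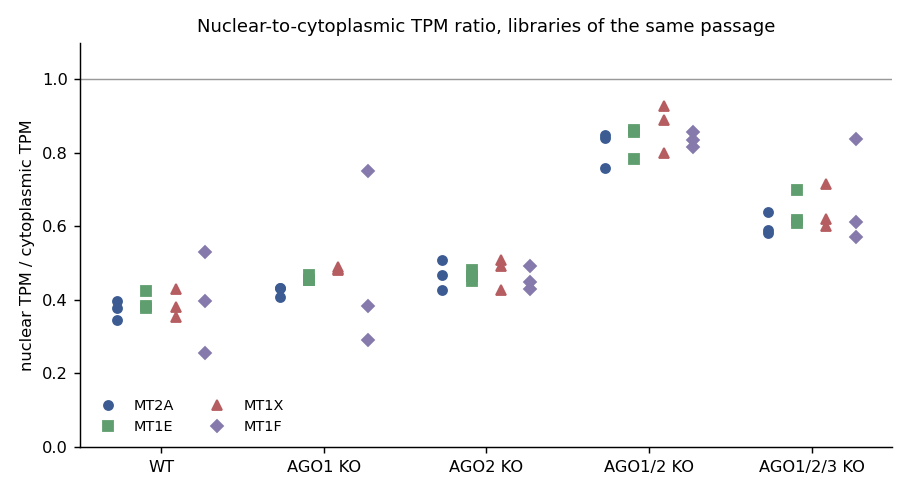
Nuclear TPM divided by cytoplasmic TPM for libraries of the same passage, for 4 members and 5 genotypes. Each symbol is 1 passage, and the grey line marks equal levels. Ratios of the double knockout lie at 0.758 to 0.928 for all 4 genes, above those of the wild type, which lie at 0.255 to 0.529.

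On the TPM scale the ratio was 0.387 for the summed family in wild type, 0.446 in the AGO1 knockout, 0.466 in the AGO2 knockout, 0.831 in the double and 0.627 in the triple knockout. The double knockout had the highest ratio for each of the 4 genes and its same-passage ratios did not overlap the wild type. GAPDH, a glycolytic enzyme whose RNA served as a cytoplasmic reference, moved in the same order, with ratios of 0.644, 0.804, 0.833, 1.79 and 1.05, and its part in the metallothionein result was not tested. In the double knockout the fraction difference was small in TPM, with log2(TPM + 1) values of -0.29, -0.26, -0.20 and -0.21 for MT2A, MT1E, MT1X and MT1F, of which limma called MT1E. The median of all genes in that comparison was at 0.48.

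Whether the knockout effect differed between the fractions was tested as an interaction in a fit of all 30 libraries. MT1E, MT1X and MT1F rose more in the nucleus than in the cytoplasm in the double knockout, by 0.51 ± 0.13, 0.51 ± 0.16 and 0.73 ± 0.24 on the log2 scale (edgeR adjusted p = 2.15e-03, 0.0116 and 0.0173), where 19.6% of genes were called in that direction. In the triple knockout, where 11.7% were, the 3 values were 0.47 ± 0.13, 0.52 ± 0.16 and 0.75 ± 0.24 (edgeR adjusted p = 0.00758, 0.0174 and 0.0249). With reads of protein-coding transcripts only, MT1E was at 0.25 and 0.32 and MT1F at 0.57 and 0.62 in the double and triple knockouts, none of them called (edgeR adjusted p of MT1E = 0.164 and 0.0850), and MT1X alone was called. All 3 MT1E transcripts are annotated as protein-coding, so this setting removed no MT1E read. For MT1E it changed only the other genes of the fit and, with them, the scaling. With all reads MT2A had values similar to those of the other 3 members, 0.57 ± 0.23 and 0.52 ± 0.23, and missed the threshold (edgeR adjusted p = 0.0510 and 0.105). With passage as a replicate block MT2A was called in both lines, as given with the processing below. Same-passage deviations did not correlate above 0.1 in every knockout pair. With both libraries of wild-type passage 29 left out, an alternative chosen after the data were seen, MT2A was at 0.66 and 0.61 and all 4 members were called in both lines (edgeR adjusted p of MT2A = 5.32e-05 and 3.14e-04). On the log2(TPM + 1) scale limma also called all 4 members in both lines, where the median of all genes was at 0.13 and -0.01. The share of all genes that limma called there is not given.

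The number of these calls was sensitive to single libraries of both fractions. Without nuclear wild-type passage 28 only MT1E remained called in either line, and MT1X and MT1F were at 0.39 and 0.62 in the double and 0.39 and 0.63 in the triple knockout. Without nuclear triple knockout passage 14 only MT1E remained called in that line, with MT1X at 0.46 and MT1F at 0.60. MT1F also missed the threshold without nuclear wild-type passage 27 (0.64 in the double and 0.65 in the triple knockout), without cytoplasmic wild-type passage 28 (0.62 and 0.63) and, in the double knockout, without its nuclear passage 11 (0.58). MT2A passed in the double knockout without cytoplasmic wild-type passage 27 or 28 (0.66 and 0.69) or cytoplasmic double knockout passage 10 (0.64). With passage 29 in question, the MT2A interaction in the double knockout was 0.91 without nuclear and 0.34 without cytoplasmic wild-type passage 29, and in the triple knockout 0.85 and 0.29. In the single knockouts edgeR without a passage block and DESeq2 called 0 of the 4 members. In that edgeR fit 0.184% of genes were called higher in the AGO1 and 2.63% in the AGO2 knockout, and 2 and 0 members had an unadjusted p under 0.05. With passage as a replicate block edgeR called members in both single knockouts, as counted with the processing below. Without nuclear wild-type passage 29, or without both passage 29 libraries, MT2A was called in the AGO2 knockout, at 0.64 and 0.40. Short coding genes had a median interaction of 0.27 in the double and 0.26 in the triple knockout, against 0.13 and 0.08 over all coding genes.

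The transcripts of each gene were examined for the nuclear difference. MT2A-201, the coding transcript that carries the sequence shown above, held 82.4% of the MT2A reads in wild-type nuclei and 90.0% in wild-type cytoplasm. Its nuclear level was 79.4, 63.7 and 122 TPM in wild type, 174, 204 and 191 TPM in the double and 163, 149 and 163 TPM in the triple knockout. MT2A-203, which retains an intron, was at 2.14, 2.09 and 4.78 TPM in wild-type nuclei, 2.30, 2.48 and 2.57 TPM in the double and 3.75, 3.06 and 3.96 TPM in the triple knockout. The double and triple knockouts thus separated from the wild type in the spliced transcript. In the intron-retaining one they overlapped it only through the wild-type library at 4.78 TPM. The other wild-type libraries, at 2.14 and 2.09 TPM, lay below every double and triple knockout library there. A rise confined to the spliced transcript is therefore not shown. In cytoplasmic RNA MT2A-203 was at 0.114 to 0.170 TPM as group means. MT2A-205, a spliced transcript without an annotated reading frame, also had higher nuclear means in these lines. It was at 25.8 TPM in wild type, 57.5 TPM in the double and 46.8 TPM in the triple knockout.

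**Figure D4:**
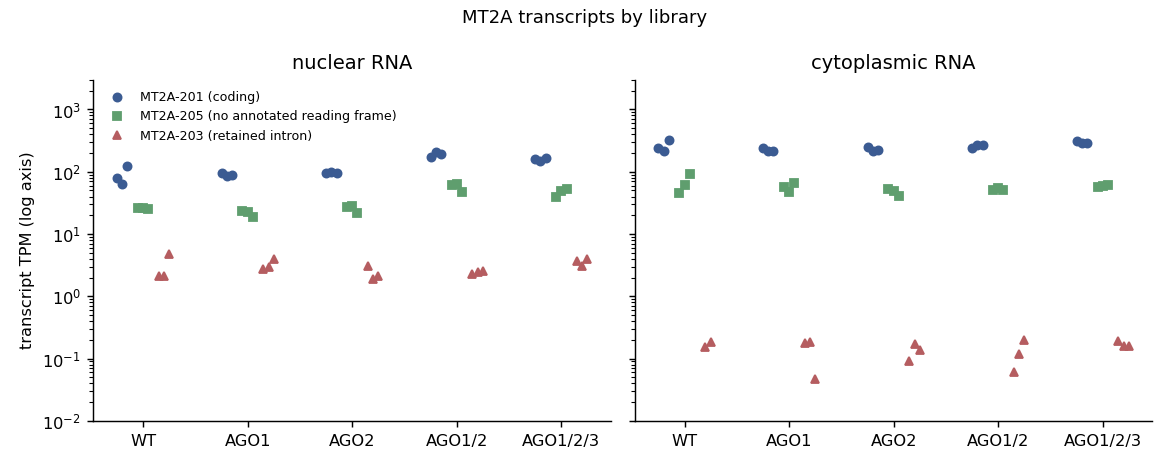
Level of 3 MT2A transcripts in each library, in TPM on a log axis, in nuclear (left) and cytoplasmic (right) RNA by genotype. Circles are the coding transcript, squares a spliced transcript without an annotated reading frame, and triangles the intron-retaining transcript, which is listed at 0 in the cytoplasm of 1 wild-type library and not drawn there. In nuclear RNA the circles rise in the double and triple knockouts and the triangles stay between 1.91 and 4.78 TPM in all 15 libraries. The triangle at 4.78 TPM is a wild-type library. The other wild-type triangles lie below those of the double and triple knockouts.

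In MT1X the levels were as follows. Its intron-retaining transcript MT1X-204 held 17.6% of the MT1X reads in wild-type nuclei, 6.67% in the double and 10.4% in the triple knockout, with levels of 0.804 ± 0.279, 0.865 ± 0.0135 and 1.28 ± 0.314 TPM (SD, n = 3). The coding transcript MT1X-201 went from 22.5 ± 2.17 TPM to 73.2 ± 6.18 and 64.9 ± 5.82 TPM in the same nuclei. In MT1E the nuclear level of MT1E-202, a longer coding transcript, was 4.98 ± 1.41 TPM in wild type, 5.22 ± 0.280 TPM in the double and 7.55 ± 1.64 TPM in the triple knockout, while MT1E-201 was at 70.5 ± 4.83, 183 ± 16.6 and 148 ± 8.88 TPM. MT1E-203, a shorter coding transcript of 332 bases, was at 69.2 ± 7.37, 178 ± 10.5 and 160 ± 2.13 TPM in the same nuclei. These transcript levels are the estimates of the deposited tables and were not tested.

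The genes that sense or move the same metals were described from lists of names. MTF1, the zinc-sensing transcription factor, rose in both fractions of the double and the triple knockout, by 0.42 ± 0.07 and 0.32 ± 0.07 in nuclear and 0.31 ± 0.06 and 0.35 ± 0.06 in cytoplasmic RNA on the log2 scale (edgeR adjusted p = 5.46e-05, 7.13e-04, 8.82e-04 and 5.98e-04). In the single knockouts it had values of -0.01 to 0.11, none of them called. The direction of the mean turned with the scale except in the cytoplasm of the triple knockout. In TPM nuclear MTF1 was at 10.2 in wild type (9.93 to 10.6), 8.97 in the double (7.25 to 11.5) and 8.47 in the triple knockout (8.00 to 8.77). The double knockout thus overlapped the wild type there and the triple knockout did not. Cytoplasmic MTF1 was at 5.65 TPM in wild type, 4.70 TPM in the double and 5.88 TPM in the triple knockout. SLC30A1, the zinc exporter of the plasma membrane and an MTF1 target, rose in nuclear RNA by 0.54 ± 0.09 and 0.82 ± 0.09, and in cytoplasmic RNA had values of 0.12 ± 0.12 and 0.28 ± 0.12 that were not called. SLC39A10, a zinc importer that MTF1 is known to repress, fell in both fractions, with log2 values of -0.95 ± 0.07 and -0.86 ± 0.07 in nuclear and -1.31 ± 0.10 and -1.33 ± 0.10 in cytoplasmic RNA.

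Of the 7 genes listed as MTF1 and its reported targets, 3 were called higher and 3 lower in the nuclear RNA of both the double and the triple knockout. In cytoplasmic RNA 2 were higher and 2 lower in the double and 1 higher and 2 lower in the triple knockout. The share of all genes called higher in these lines was 32.9% and 29.1% in nuclear and 23.9% and 18.6% in cytoplasmic RNA. The share of all genes called lower was 15.6%, 19.9%, 34.7% and 29.5% in nuclear RNA of the AGO1, AGO2, double and triple knockouts, and 8.13%, 9.0%, 25.4% and 20.0% in cytoplasmic RNA. The list therefore moved in both directions, with a median in the triple knockout of 0.07 in nuclear and 0.17 in cytoplasmic RNA. Among its members GCLC, a subunit of the enzyme that makes glutathione's precursor, fell to log2 values of -1.33 ± 0.08 and -0.61 ± 0.18 in the triple knockout, and NDRG1, a stress-responsive gene, rose in nuclear RNA by 1.15 ± 0.32 (edgeR adjusted p = 5.77e-03).

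Of 24 zinc transporters 19 were tested. In nuclear RNA 12 were called higher and 2 lower in the double and 11 and 2 in the triple knockout, with list medians of 0.42 and 0.33. In cytoplasmic RNA 8 were higher and 3 lower in the double and 5 each way in the triple knockout, with medians of 0.12 and -0.04. Of all genes, 32.9% and 29.1% were called higher and 34.7% and 29.5% lower in nuclear RNA of these lines. In cytoplasmic RNA 23.9% and 18.6% of all genes were called higher and 25.4% and 20.0% lower. SLC39A13, a zinc transporter of intracellular membranes, rose in the triple knockout by 0.74 ± 0.08 in nuclear and 0.79 ± 0.09 in cytoplasmic RNA. SLC30A10, known for manganese export, had 22 to 42 reads in wild-type nuclear libraries and 17 to 21 in cytoplasmic ones, 2 to 7 in the AGO1 knockout libraries and at most 1 read in any library of the AGO2, double and triple knockouts.

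Of 11 copper-handling genes, 4 were called higher and 2 lower in nuclear RNA of the triple knockout, and 1 higher and 3 lower in cytoplasmic RNA. The shares of all genes there were 29.1% higher and 29.5% lower in nuclear and 18.6% higher and 20.0% lower in cytoplasmic RNA. The nuclear genes with the largest calls were SOD1, the copper- and zinc-dependent superoxide dismutase, at 0.69 ± 0.07, SLC31A1, the copper importer, at 0.60 ± 0.06, and SCO2, a mitochondrial copper chaperone, at 0.60 ± 0.11. Their cytoplasmic values in the triple knockout, 0.02, 0.04 and 0.01, were not called. The cytoplasmic calls included ATOX1, the copper chaperone of the cytosol, which rose by 0.9965 ± 0.08, and the copper pumps ATP7A and ATP7B, which fell by 0.62 ± 0.13 and 0.81 ± 0.18 on the log2 scale.

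**Figure D5:**
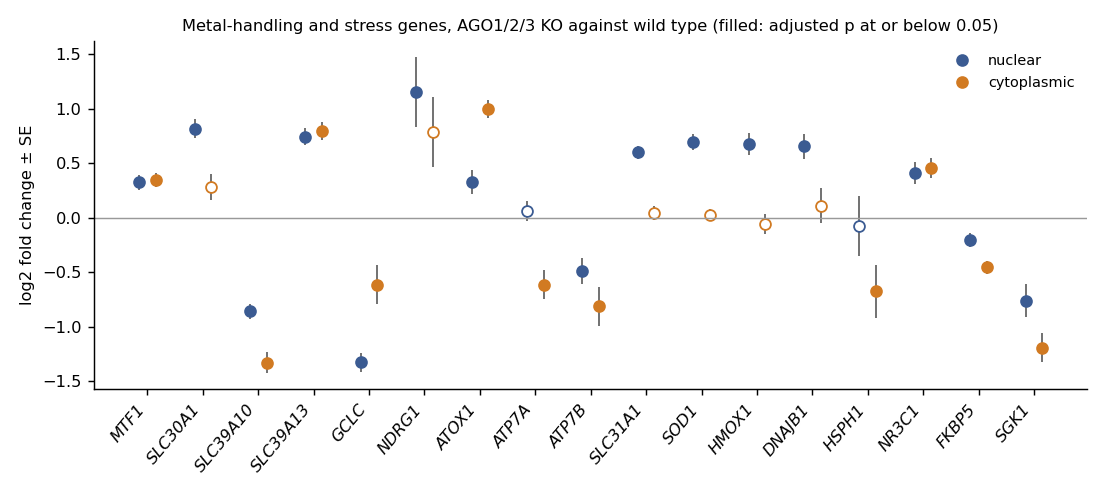
Log2 fold change in TMM-scaled counts, with its SE, of genes that sense or move metals and of stress and glucocorticoid genes, in the triple knockout against wild type. Blue is nuclear and orange cytoplasmic RNA, and filled points passed an edgeR adjusted p of 0.05. MTF1 is higher in both fractions on this scale (0.32 and 0.35), although its nuclear TPM is lower, and SLC39A10 lower in both (-0.86 and -1.33).

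The heat-shock and metal-stress genes, which respond to cadmium and other stresses beside the metallothioneins, were counted in each fraction against the shares of all genes given above. Of 9 tested, 4 were called higher in nuclear RNA of the AGO1 knockout, 7 in the AGO2 knockout, 4 in the double and 4 in the triple knockout, with 1 lower in the last. Among all genes 14.3%, 20.2%, 32.9% and 29.1% were called higher in these lines, and 29.5% lower in the triple knockout. In cytoplasmic RNA none was higher in any line, and 1 was lower in the AGO2 knockout, 3 in the double and 2 in the triple knockout. Among all genes 9.0%, 25.4% and 20.0% were called lower there, and from 4.28% (AGO1) to 23.9% (double knockout) higher. HMOX1, which breaks down haem, was at 0.67 ± 0.10 in nuclear RNA of the triple knockout (edgeR adjusted p = 4.53e-05) and at -0.06 ± 0.09 in cytoplasmic RNA. The co-chaperone DNAJB1 was at 0.65 ± 0.12 and 0.11 ± 0.16, and the chaperone HSPH1 at -0.08 ± 0.27 and -0.68 ± 0.24, of which the nuclear value of DNAJB1 and the cytoplasmic value of HSPH1 were called. The difference between the fractions was itself called in 0 of 9 genes in each single knockout, in 5 in the double and in 2 in the triple knockout, where HMOX1 was called (0.65 ± 0.14, edgeR adjusted p = 0.00101) and DNAJB1 and HSPH1 were not (edgeR adjusted p = 0.138 and 0.398). All of these calls had the nuclear change above the cytoplasmic one. Of all genes, 19.6% were called in that direction in the double and 11.7% in the triple knockout.

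Of 8 glucocorticoid-responsive genes, 3 were called higher and 2 lower in nuclear RNA and 1 higher and 2 lower in cytoplasmic RNA of the triple knockout. Among all genes 29.1% were called higher and 29.5% lower in nuclear RNA, and 18.6% and 20.0% in cytoplasmic RNA. NR3C1, the glucocorticoid receptor, rose by 0.41 ± 0.10 and 0.46 ± 0.10 in TMM-scaled counts, while its mean nuclear TPM was lower in the triple knockout (4.72) than in wild type (5.37). The receptor's usual target FKBP5 fell by 0.20 ± 0.06 and 0.45 ± 0.06 on the log2 scale, and SGK1, a kinase induced by glucocorticoids, fell by 0.76 ± 0.15 and 1.19 ± 0.13. KLF9 and TSC22D3 rose in nuclear RNA by 0.95 ± 0.29 and 1.39 ± 0.51 (edgeR adjusted p = 0.0110 and 0.0299).

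The 4 members followed each other over the 30 libraries once the mean of each fraction was taken out, with Pearson correlations of log2 TMM-scaled counts from 0.873 (MT2A with MT1F) to 0.958 (MT1X with MT1E and with MT1F). The points share genotype groups and libraries, and the values are a description. Among 16720 genes outside the family, those whose pattern was most like MT2A included CST6 (r = 0.965), ELOVL1 (0.951), GALK1 (0.940) and EGFL7 (0.935). Those most like MT1X were S100A3 (0.976), IGFBP6 (0.975), TMBIM1 (0.972), EHD1 (0.970) and GNAI2 (0.967). In nuclear RNA IGFBP6 went from 6.71 TPM in wild type to 55.9 TPM in the double and 51.0 TPM in the triple knockout, and CST6 from 7.64 to 22.5 and 17.6 TPM.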

How the data were processed

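RNA of nuclear and cytoplasmic fractions was sequenced in 30 libraries, 3 for each of 5 genotypes and 2 fractions. The authors quantified transcripts with Salmon, and the deposited values are estimated counts of reads and TPM per transcript (Salmon 0.11.0 and STAR 2.5.3a in the submitters' processing notes). How the deposited TPM and estimated counts divide reads among similar genes follows the authors' transcript models, whose lengths for some members differ from those of GENCODE release 44.

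Transcripts were matched by identifier to GENCODE release 44 (196040 of 200401, 97.82%), and 2.23 to 4.01% of reads lay in unmatched transcripts. Estimated counts were summed per gene, rounded and tested with edgeR 4.0.16 (quasi-likelihood test, TMM, filterByExpr with a minimum count of 10, Benjamini-Hochberg adjustment over all genes tested). The 15 libraries of a fraction shared a fit for genotype comparisons, and all 30 libraries a fit for fraction comparisons and interactions. A gene whose adjusted p did not exceed 0.05 counts as called. TPM was tested with limma 3.58.1 on log2(TPM + 1), and DESeq2 1.42.0 was an alternative. The tests were tested on simulated data. Figures were drawn with matplotlib 3.10.9.

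The members and lists were chosen with earlier results of these data known. Named were all 6 members, MTF1, SLC30A1 and SLC39A10, from each list the genes with the largest calls in the triple knockout, and the 5 genes most like MT2A and MT1X, of which 1 is not reported here. Passage was not used as a block, since the deviations of same-passage libraries in the 2 fractions correlated above 0.1 in all 3 wild-type pairs but not in every pair of the knockouts. A further 8 libraries of the series, of Argonaute-bound RNA, were not analysed here. The floor of 3 reads covers counting error only, and edgeR intervals include the spread between libraries.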

Additional observations from a re-analysis of the deposited data

Results flagged for a closer look

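The effect of the double knockout differed between the fractions for 3 members, by an interaction in the fit of all 30 libraries. The nuclear log2 fold change exceeded the cytoplasmic one by 0.5145 for MT1E, 0.5146 for MT1X and 0.7332 for MT1F. In the triple knockout the same difference was 0.4737 for MT1E, 0.5216 for MT1X and 0.7476 for MT1F. With protein-coding transcripts only, MT1E (0.25 and 0.32) and MT1F (0.57 and 0.62) were not called in either line. This setting removed no MT1E read, since all MT1E transcripts are annotated as protein-coding. Both lines were compared with the same wild-type libraries. MT2A had values of the same size, 0.57 and 0.52, that missed the threshold in this fit of all 30 libraries. It was called in both lines without both libraries of wild-type passage 29. With that passage kept, it was also called with passage as a block and by limma on log2(TPM + 1). The nuclear to cytoplasmic TPM ratio of GAPDH also differed between the genotypes, from 0.644 in wild type to 1.79 in the double and 1.05 in the triple knockout, and its part in these values was not tested.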

How the results depend on the processing

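All 4 tested members stayed called higher in nuclear RNA of the double and triple knockouts under every alternative and with each library left out. The number of members called moved by over 1.5 times as follows, and the cause was not tested. For nuclear RNA it fell to 0 in the AGO1 knockout with limma on TPM (either pseudocount) or with only the groups compared, and to 1 in the AGO2 knockout with limma. Between the single knockouts it was 2 with DESeq2, length-scaled counts, all 30 libraries in 1 fit or only the groups compared, and 0 with limma. For cytoplasmic RNA limma called 2 in the AGO1 and 0 in the AGO2 knockout. Among all genes limma on log2(TPM + 1) called 6139 and 6990 of 18919 in nuclear RNA of the AGO1 and AGO2 knockouts. In their cytoplasmic RNA it called 3243 and 5090 of 17605. Nuclear against cytoplasmic RNA of the double knockout had 1 with limma on log2(TPM + 1). With protein-coding transcripts only, the interaction was called in 1 member in the double and 1 in the triple knockout, and without both wild-type passage 29 libraries in 1 member in the AGO2 knockout. The protein-coding setting removed no MT1E read. Smaller changes were 3 calls in the nuclear AGO2 knockout with RLE, without a filter or with all 30 libraries, 3 in the cytoplasmic double knockout with length-scaled counts, limma or only the groups compared, 3 in the cytoplasmic triple knockout with limma or only the groups compared, 2 between the single knockouts in cytoplasmic RNA with limma, and for the interaction 2 in the double knockout with DESeq2 (MT1F adjusted p = 0.0510) and 4 in both lines with limma. In TMM-scaled reads in place of TPM the summed cytoplasmic level over wild type was 1.157 (AGO2 knockout), 1.477 (double) and 1.5 (triple), against 0.979, 1.11 and 1.27 in TPM.

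With passage as a replicate block, the interaction was called in 3 members in the AGO1 knockout, 1 in the AGO2, 4 in the double and 4 in the triple knockout, and each fraction comparison kept 4 calls. MT2A was then at 0.60 and 0.54 in the double and triple knockouts (edgeR adjusted p = 2.84e-05 and 1.59e-04). Same-passage deviations correlated between -0.0297 and 0.499, and above 0.1 in all 3 wild-type pairs. The shares of all genes called in the interaction, given above, are those of the fit without a block. No such share is given for the fit with the block, so its counts of members cannot be set against all genes.

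These log2 values changed sign, none of them called by edgeR except the last. In nuclear RNA of the AGO1 knockout MT1F was at 0.0397 without a filter, 0.02808 with all 30 libraries and 0.01928 with only the groups compared, and with limma MT2A was at -0.01287 and -0.01272 and MT1X at -0.04423 and -0.04598 (pseudocounts 1 and 0.1). In nuclear RNA of the triple against the double knockout MT1F was at -0.009703 with DESeq2, -0.008777 with RLE, -0.004817 without a filter and -0.1475 and -0.1825 with limma, and MT1X at -0.1518 and -0.1537 with limma. There MT2A and MT1E were at 0.01311 and 0.00612 with a mean count of at least 50, and at 0.02967 and 0.04805 with protein-coding transcripts. In cytoplasmic RNA limma gave MT1E -0.1123 and -0.1126 in the AGO1 knockout, MT2A -0.2089 and -0.2095 and MT1F -0.06306 and -0.07782 in the AGO2 knockout, MT2A -0.01112 and -0.01116 between the single knockouts, and MT1F 0.1213 and 0.1425 in the triple against the double knockout. MT2A in the AGO2 knockout was at -0.003894 with length-scaled counts. MT2A in the double knockout, called by edgeR, was at -0.04516 and -0.04524 with limma.

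With each library left out, members called ranged from 1 to 2 (nuclear AGO1 knockout), 2 to 4 (nuclear AGO2), 0 to 0 (nuclear AGO2 against AGO1), 0 to 1 (cytoplasmic AGO1), 1 to 2 (cytoplasmic AGO2), and for the interaction 0 to 1 (AGO2), 1 to 4 (double) and 1 to 4 (triple). Log2 values ranged from -0.1223 to 0.243 for MT1F in the nuclear AGO1 knockout. In cytoplasmic RNA they ranged from -0.2098 to 0.1587 for MT2A and -0.0005897 to 0.174 for MT1E in the AGO1 knockout, and from -0.1011 to 0.2675 for MT2A in the AGO2 knockout. Triple against double knockout ranged from -0.1471 to 0.1476 (MT1F), -0.07942 to 0.01644 (MT2A) and -0.08275 to 0.02067 (MT1E) in nuclear RNA, and from -0.06329 to 0.0287, -0.01667 to 0.1007 and -0.0175 to 0.08486 in cytoplasmic RNA. Of the 5 genes most like MT1X, 1 stayed among the top 5 by Spearman correlation.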
